A study of Mus musculus with 9 samples.

Results

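The 3 Batf factors (Batf, Batf2 and Batf3) and the 3 Jun factors (Jun, Junb and Jund) were followed across the populations of a mouse dendritic cell (DC) series. They were chosen by gene symbol, each had 1 probe set of its own on the array, and they made up 6 of the 19938 genes measured. Bone marrow cells of mice in which 1 Zbtb46 allele carried a GFP reporter (heterozygous Zbtb46-GFP mice) had been sorted into 3 populations. These were common DC progenitors without the reporter (Zbtb46-neg CDPs), common DC progenitors with it (Zbtb46-pos CDPs) and precursors of the CD8 DCs, now called cDC1 (pre-CD8 DCs). Each population was measured on 3 arrays, and every group carried the same reporter allele, so no group without it served as a control. The series set out to follow the order of expression changes along DC development. The labels give neither the sort gates nor the age of the mice, and nothing in them tells if the replicates came from different mice, pools or sorts. Each p therefore measures the spread between these arrays, part of which may be technical.

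Batf and Jun proteins belong to the AP-1 family, whose members carry a basic leucine zipper and bind DNA as dimers. Batf and Batf3 are short proteins that lack a transactivation domain of their own. The Batf factors pair with Jun factors and, at composite elements in lymphocytes and DCs, bind beside Irf4 or Irf8. In mice, Batf3 is required for the development of cDC1 in spleen, and it sustains Irf8 transcription in committed cDC1 progenitors. Batf and Batf2 can take over part of this role under inflammatory conditions. Jun, Junb and Jund differ in how they are controlled: Jun and Junb are immediate early genes, transcribed within minutes of many stimuli, whereas Jund is less inducible.

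The promoters of the members the results turn on are shown first. RefSeq start sites (build GRCm38.p6) were found for 5 of the 6 members, all but Batf2, with a window of 250 bases before the start and 50 from it. The window of Batf3 is chr1:191098164-191098463 on the plus strand, that of Junb is chr8:84978699-84978998 on the minus strand and that of Jun is chr4:95052173-95052472 on the minus strand. Each is printed along its gene's strand, 5′ to 3′, with matches to the searched motifs in capitals.
Batf3: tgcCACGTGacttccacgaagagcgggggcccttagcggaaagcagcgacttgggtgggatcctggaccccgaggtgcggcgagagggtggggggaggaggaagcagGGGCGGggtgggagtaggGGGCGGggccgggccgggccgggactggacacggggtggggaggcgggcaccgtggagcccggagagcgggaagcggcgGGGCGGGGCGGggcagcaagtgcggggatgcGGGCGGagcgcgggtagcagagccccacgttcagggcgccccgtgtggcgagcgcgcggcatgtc
Junb: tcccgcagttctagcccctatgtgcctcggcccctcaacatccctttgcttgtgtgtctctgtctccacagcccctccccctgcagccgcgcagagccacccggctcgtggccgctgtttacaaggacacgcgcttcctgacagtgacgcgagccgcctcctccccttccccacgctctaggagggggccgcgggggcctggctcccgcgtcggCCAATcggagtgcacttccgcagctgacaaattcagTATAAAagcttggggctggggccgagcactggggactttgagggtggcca
Jun: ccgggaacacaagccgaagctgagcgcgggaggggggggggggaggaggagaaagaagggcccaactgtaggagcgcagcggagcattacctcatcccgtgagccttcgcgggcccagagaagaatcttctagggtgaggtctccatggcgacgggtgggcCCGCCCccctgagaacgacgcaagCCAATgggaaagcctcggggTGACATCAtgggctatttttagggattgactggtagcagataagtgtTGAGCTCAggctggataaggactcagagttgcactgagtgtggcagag

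The 7 motifs searched, on both strands, were the AP-1 site TGANTCA, the CRE-like site TGANNTCA, the E-box CACGTG, the GC box GGGCGG, the CCAAT box, the TATA box TATAAA and an IRF element, a pair of GAAA stretches with 2 bases between them. The Batf3 window was 75.7% G and C, against a median of 52.7% over 32851 promoter windows of the same length. It held an E-box starting at -247 from the start site, a motif found in 7.15% of all windows. It also held 5 GC boxes, 2 of which share 1 base, and a GC box was found in 35.7% of all windows. The Junb window held a CCAAT box at -36 and a TATA box whose first base is the annotated start. These occurred in 37.4% and 13.6% of all windows. The Jun window held a pair of CRE-like sites, TGACATCA at -45 and TGAGCTCA at 3, a GC box at -89 and a CCAAT box at -65. CRE-like sites, which Jun heterodimers with Atf factors can bind, were found in 14.1% of all windows. The other windows held 1 match each, a GC box at -90 for Batf (chr12:85686470-85686769) and the CRE-like TGAAATCA at -61 for Jund (chr8:70697489-70697788). None of the 5 windows held an AP-1 or IRF match, which 7.81% and 3.44% of all windows did. A match is a run of letters and not a measured site.

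Array medians lay between 110.2 and 118.0 signal units, and with 3 arrays a group precision was limited. The sorted populations carried the markers of their labels: of 13 cDC1 markers, 7 rose in Zbtb46-pos CDPs over Zbtb46-neg CDPs and 9 in pre-CD8 DCs over Zbtb46-pos CDPs, and none fell. Of 8 CDP and progenitor markers, 7 fell at the first of these steps and 5 at the second, where 2 rose. Those that rose were the receptors Kit, by 0.90 on the log2 scale, and Flt3, by 0.59. Of all genes, 3.85% rose and 10.6% fell at the first step, and 4.76% rose and 1.86% fell at the second. The 4 primary granule markers, typical of early myeloid progenitors, summed to 26635 to 26780 signal units in Zbtb46-neg CDPs, to 14198, 7212 and 7282 in Zbtb46-pos CDPs and to 436 to 464 in pre-CD8 DCs. The 7 cDC2 markers summed to 6096 to 6483, 4635 to 5486 and 2659 to 3336 in the same order, but not all fell. Of these 7, 2 rose and 3 fell at the first step, and 4 fell and none rose at the second. In pre-CD8 DCs against Zbtb46-neg CDPs 2 rose and 5 fell, beside 6.43% and 9.23% of all genes. The part of these shifts in the members' values was not tested. B cell markers summed to 637 to 979 and T and NK markers to 403 to 908 signal units over the 9 arrays. Replicate 1 stood apart in both CDP populations. Xist is the RNA of the silenced X chromosome. Its log2 signal was 5.30 on replicate 1 of the Zbtb46-pos CDPs and 5.59 on that of the Zbtb46-neg CDPs. The other 7 arrays had 11.85 to 12.29. Both CDP populations thus mixed arrays low and high in Xist, while the pre-CD8 DC arrays were all high. Technical repeats of the same RNA would not differ this much, and the sex of the mice was not tested. The 8 neutrophil secondary granule markers summed to 5405, 848 and 1171 on replicates 1 to 3 of the Zbtb46-neg CDPs, to 18160, 775 and 663 on those of the Zbtb46-pos CDPs and to 1611, 731 and 1757 on those of the pre-CD8 DCs. These 2 arrays also had high signals of Jun, Junb and other immediate early genes. The members are given with all 9 arrays and again without these 2, which leaves 2 arrays in each CDP population. Leaving them out removes high values of the tested genes themselves and so lowers their spread. Small p values of Jun and other immediate early genes in the smaller fit may follow from that removal.

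With all 9 arrays Batf3 was the one member that changed at both steps, and it was higher at each. Its signal was 293, 251 and 213 in Zbtb46-neg CDPs, 1056, 766 and 824 in Zbtb46-pos CDPs, and 2001, 2008 and 1876 in pre-CD8 DCs. No array of one population overlapped those of another. On the log2 scale the means were 7.97 ± 0.23, 9.77 ± 0.24 and 10.94 ± 0.06 (SD, n = 3 each). Since each array measured a sorted population in bulk, fewer cells with a transcript and less of it per cell cannot be told apart, here and below.

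**Figure D1:**
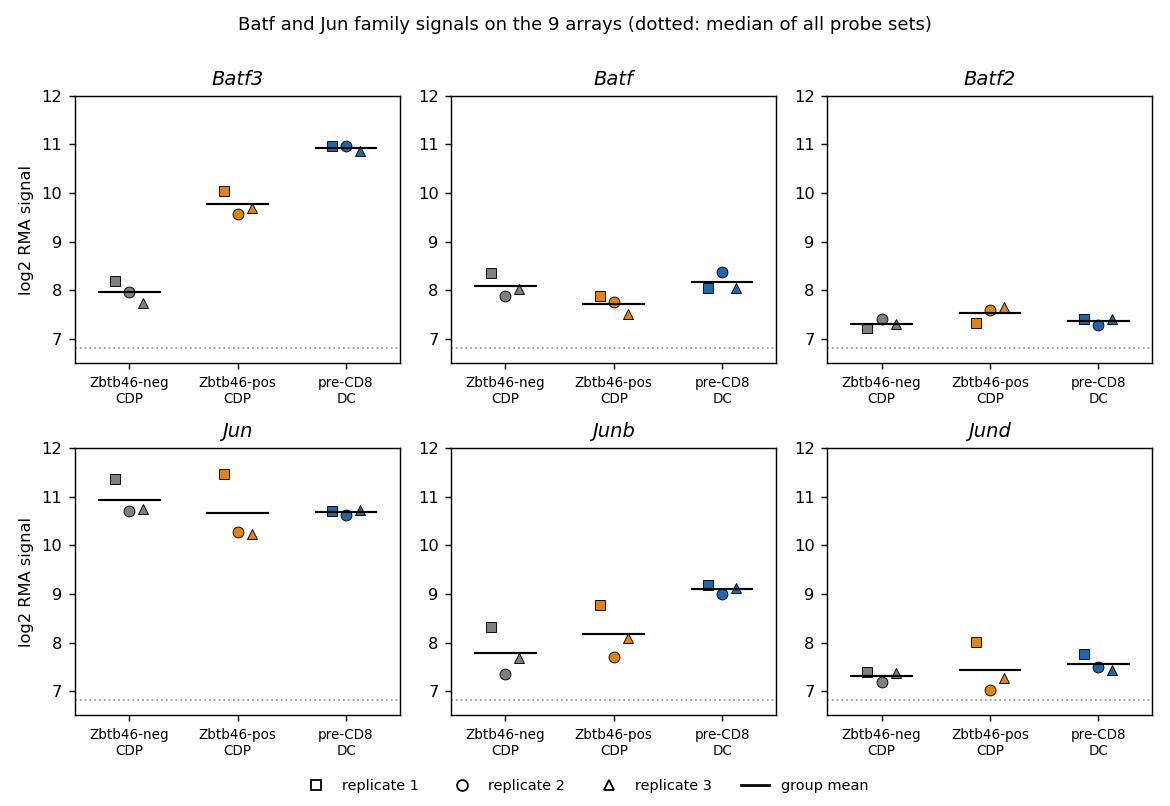
Log2 signal of the 6 members on each of the 9 arrays (symbols by replicate), with a line at the mean of each population (n = 3) and a dotted line at the median of all probe sets. Batf3 climbs over the 3 populations with no overlap, and Junb is highest in pre-CD8 DCs, while replicate 1 lies above the other CDP arrays for Jun and Junb.

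The threshold for a call was an adjusted p of 0.05 in limma's moderated test, with the Benjamini-Hochberg method applied to the whole array. Batf3 was 3.50-fold higher in Zbtb46-pos than in Zbtb46-neg CDPs (95% interval 2.80 to 4.37, adjusted p = 0.000105). It was the only member of 6 called there, where 14.4% of all genes were called, 3.85% as higher and 10.6% as lower. The split between higher and lower calls depended on scaling, with 768 higher and 2105 lower as deposited, and 1118 and 1618 after quantile normalization. Batf3 was also the only member whose arrays did not overlap at this step, which held for 29.3% of all genes. Its rise ranked 43 among the rises of all 19938 genes.

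In pre-CD8 DCs Batf3 was 2.24-fold higher than in Zbtb46-pos CDPs (95% interval 1.80 to 2.81, adjusted p = 0.00166). Again it was the 1 member called, and 6.62% of all genes were called, 4.76% as higher (949) and 1.86% as lower (370). Quantile normalization gave 788 higher and 590 lower calls. Arrays did not overlap for Batf3, Batf and Junb, 3 of the 6 members, against 22.9% of all genes. Over the whole span, pre-CD8 DCs against Zbtb46-neg CDPs, Batf3 was 7.85-fold higher (95% interval 6.28 to 9.81, adjusted p = 1.68e-06). Junb was called there as well, so 2 of 6 members rose, beside 15.7% of all genes called, 6.43% as higher and 9.23% as lower. Arrays did not overlap for Batf3, Junb and Jund, against 33.7% of all genes. The moderated F test over the 3 populations called Batf3 (adjusted p = 5.21e-06) and Junb (adjusted p = 0.0265), and 19.1% of all genes.

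The increments of Batf3 were set against each other. The second step added 1.17 and the first 1.81 on the log2 scale, a difference of -0.64 (95% interval -1.20 to -0.08) that missed the threshold after adjustment (adjusted p = 0.161). Limma called 0 of 6 members in this comparison of the steps, in which 7.63% of all genes were called. Unadjusted p was under 0.05 for Batf3 and for Batf, 2 of the 6, and for 23.4% of all genes. Without replicate 1 of both CDP populations Batf3 was as clear, with a first step of 1.78 (adjusted p = 5.23e-05) and a second of 1.30 (adjusted p = 0.000174) on the log2 scale.

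Batf, which guides helper T cell differentiation and class switching in B cells, did not follow Batf3. Its signal was 327, 235 and 263 in Zbtb46-neg CDPs, 236, 218 and 182 in Zbtb46-pos CDPs, and 266, 335 and 265 in pre-CD8 DCs. The lowest values lay in Zbtb46-pos CDPs, whose arrays were all below those of pre-CD8 DCs. The log2 difference was -0.37 in Zbtb46-pos against Zbtb46-neg CDPs (95% interval -0.71 to -0.03, adjusted p = 0.14). In pre-CD8 DCs against Zbtb46-pos CDPs it was 0.44 (95% interval 0.10 to 0.79, adjusted p = 0.135), and without replicate 1 of both CDP populations it was 0.52 and passed (adjusted p = 0.0293). Pre-CD8 DCs and Zbtb46-neg CDPs, at means of 8.16 and 8.09, differed by 0.07 (95% interval -0.27 to 0.41).

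Batf2, an interferon-inducible factor of macrophages and DCs, stayed within a narrow range. Its signal was 150.4, 169 and 159 in Zbtb46-neg CDPs, 160.4, 195 and 201 in Zbtb46-pos CDPs, and 171, 157 and 169 in pre-CD8 DCs. Replicates 2 and 3 of the Zbtb46-pos CDPs were the highest of the 9, and every population overlapped the others. With all arrays, the log2 difference was 0.21 in Zbtb46-pos against Zbtb46-neg CDPs (95% interval -0.01 to 0.44, adjusted p = 0.19) and -0.16 in pre-CD8 DCs against Zbtb46-pos CDPs (adjusted p = 0.446). Without the replicate 1 arrays these became 0.27 (adjusted p = 0.0384) and -0.26 (adjusted p = 0.0376), both past the threshold. The first of these was also called without Zbtb46-pos replicate 1 alone (0.31, adjusted p = 0.0198). All its levels lay within 1 log2 unit of the table median of 6.82, so low signal may understate its changes.

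**Figure D2:**
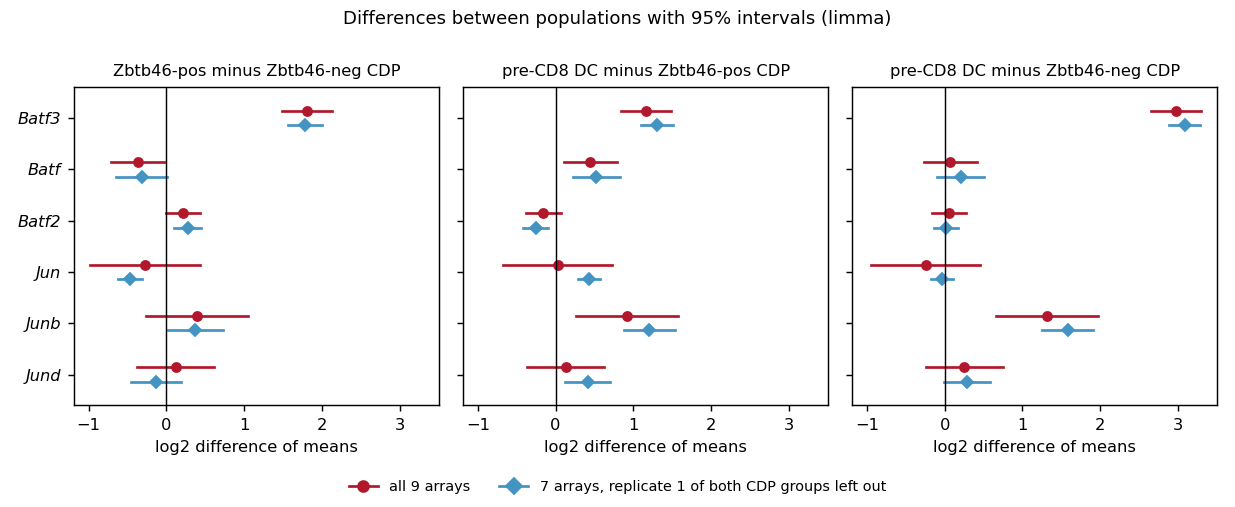
Log2 differences of the 6 members in the 3 comparisons, with 95% intervals, fitted on all 9 arrays and on the 7 arrays without replicate 1 of both CDP populations. Batf3 lies well above 0 throughout, Junb is about 1.31 higher in pre-CD8 DCs than in Zbtb46-neg CDPs, and the intervals of Jun narrow when the 2 arrays are left out.

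Among the Jun factors, Junb was the one that rose over the span. Its signal was 322, 164 and 205 in Zbtb46-neg CDPs, 436, 208 and 272 in Zbtb46-pos CDPs, and 578, 512 and 560.2 in pre-CD8 DCs. The pre-CD8 DC arrays lay close together and above all CDP arrays, and replicate 1 was the highest within each CDP population. Junb was 2.48-fold higher in pre-CD8 DCs than in Zbtb46-neg CDPs (95% interval 1.58 to 3.91, adjusted p = 0.0137). That call was lost, with log2 differences of 1.10 to 1.30, when Zbtb46-neg replicate 2 or 3 or pre-CD8 DC replicate 1 or 3 was left out (adjusted p = 0.0518, 0.0552, 0.0528 and 0.0537).

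Against Zbtb46-pos CDPs, Junb differed by 0.92 in pre-CD8 DCs (95% interval 0.26 to 1.57, adjusted p = 0.109), short of the threshold. It was called with the replicate number as a block over all 9 arrays (0.92, adjusted p = 0.0178) and with array weights (1.16, adjusted p = 0.00323). Without replicate 1 of both CDP populations this difference was 1.21 (adjusted p = 0.00178), and without Zbtb46-pos replicate 1 alone it was also 1.21 (adjusted p = 0.016). The difference of 0.40 between Zbtb46-pos and Zbtb46-neg CDPs was not called (adjusted p = 0.394). In these 2 populations Junb was higher in the Zbtb46-pos array of each number. Same-numbered CDP arrays deviated together over all genes (correlations of 0.51, 0.42 and 0.36). Zbtb46-neg replicate 3, however, correlated as much with Zbtb46-pos replicate 2 (0.38), so the pairing is uncertain. A fit of the CDP arrays alone with the replicate number as a block, chosen after seeing the data, gave an adjusted p of 0.0257, and the block over all 9 arrays gave 0.144 here.

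Jun, the founding AP-1 subunit and a target of the JNK kinases, had similar means in the 3 populations. Its signal was 2619, 1666 and 1705 in Zbtb46-neg CDPs, 2832, 1234 and 1203 in Zbtb46-pos CDPs, and 1661, 1585 and 1695 in pre-CD8 DCs. Replicate 1 held both of the highest values, and replicates 2 and 3 of the Zbtb46-pos CDPs held the lowest. The log2 SD was 0.37 in Zbtb46-neg CDPs, 0.70 in Zbtb46-pos CDPs and 0.05 in pre-CD8 DCs. With all arrays Jun differed by -0.27 in Zbtb46-pos against Zbtb46-neg CDPs (95% interval -0.98 to 0.43, adjusted p = 0.581), by 0.03 in pre-CD8 DCs against Zbtb46-pos CDPs (-0.67 to 0.73) and by -0.25 in pre-CD8 DCs against Zbtb46-neg CDPs (-0.95 to 0.46).

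The Jun values of the CDP populations turned on replicate 1. Without it in both, Jun fell by 0.47 on the log2 scale in Zbtb46-pos against Zbtb46-neg CDPs (adjusted p = 0.00295) and rose by 0.43 in pre-CD8 DCs against Zbtb46-pos CDPs (adjusted p = 0.00362). Pre-CD8 DCs and Zbtb46-neg CDPs then differed by -0.03 (adjusted p = 0.822). Leaving out Zbtb46-pos replicate 1 alone gave -0.68 for the first of these (adjusted p = 0.0228). Without replicate 1 in both, the highest Jun values were gone. The standard error of Jun between the CDP populations fell from 0.311 to 0.0652. The small p values of Jun in that fit therefore follow at least in part from the removal.

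Jund, the member of the Jun family that is expressed most steadily in many cell types, was not called in the fit of group means without a block or weights. Its signal was 167, 145 and 167 in Zbtb46-neg CDPs, 257, 131 and 154 in Zbtb46-pos CDPs, and 218, 180.1 and 173 in pre-CD8 DCs. The 3 pre-CD8 DC arrays were above the 3 Zbtb46-neg arrays, while Zbtb46-pos replicate 1 was the highest of all. Log2 differences were 0.12 in Zbtb46-pos against Zbtb46-neg CDPs (95% interval -0.38 to 0.62), 0.13 in pre-CD8 DCs against Zbtb46-pos CDPs (-0.37 to 0.63) and 0.25 in pre-CD8 DCs against Zbtb46-neg CDPs (-0.25 to 0.75). The first of these was -0.13 without replicate 1 of both CDP populations (adjusted p = 0.541). With array weights the span difference was 0.28 and passed (adjusted p = 0.0471). All levels but that of Zbtb46-pos replicate 1 lay within 1 log2 unit of the table median of 6.82, so low signal may understate changes of Jund.

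With all 9 arrays, Batf3 was the member for which every pair of neighbouring populations passed the test, in the order Zbtb46-neg CDPs, Zbtb46-pos CDPs, pre-CD8 DCs. Junb had the same order of means, and in the fit of group means without a block or weights its ends differed past the threshold while its neighbours did not. In that fit no pair passed for Batf, Batf2, Jun and Jund. Without the replicate 1 arrays, 3 of the 6 members were called between the CDP populations (Batf2 and Batf3 higher, Jun lower in Zbtb46-pos CDPs), beside 22.5% of all genes. In pre-CD8 DCs against Zbtb46-pos CDPs 5 were called (Batf, Batf3, Jun and Junb higher, Batf2 lower), beside 20.4% of all genes. Over the span 2 were called (Batf3 and Junb higher), beside 20.2% of all genes. The counts without the replicate 1 arrays rest on 2 arrays in each CDP population, with the highest Jun values removed. They do not replace those of all 9 arrays.

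The offset of replicate 1 from the mean of replicates 2 and 3 differed among the members. On the log2 scale it was 1.22 for Jun in Zbtb46-pos CDPs and 0.64 in Zbtb46-neg CDPs. For Junb it was 0.87 and 0.81 in the same populations, for Jund 0.86 and 0.10, and for Batf3 0.41 and 0.34. Batf had offsets of 0.24 and 0.40, and Batf2 ran the other way with -0.30 and -0.12. Dusp1, a phosphatase induced within minutes of stress, had 1.46 and 0.60, Fos 1.39 and 0.79, and the secondary granule gene Ngp 6.80 and 4.21. In pre-CD8 DCs the members' offsets ran from -0.16 for Batf to 0.30 for Jund. The part of these 2 arrays' granule and immediate early transcripts in the members' values was not tested.

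**Figure D3:**
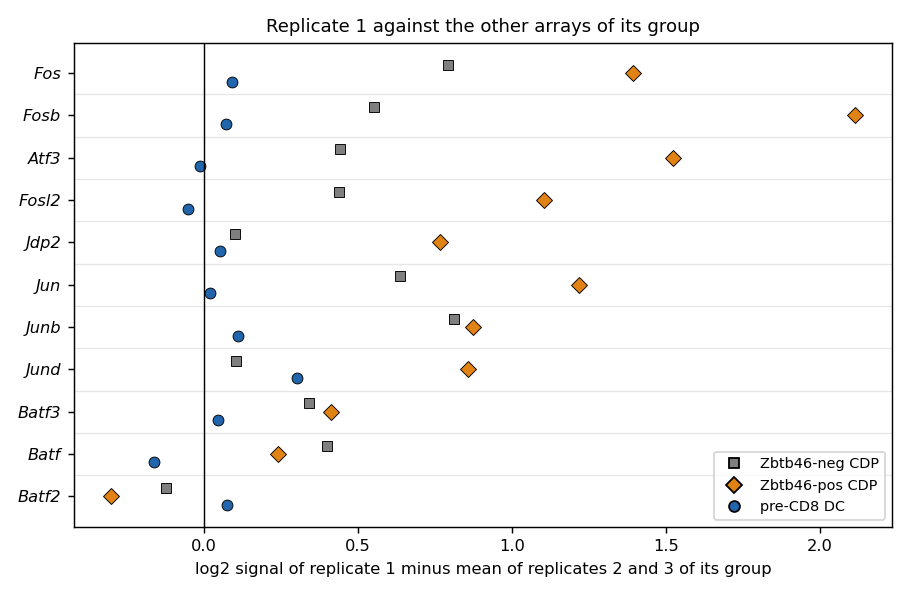
Log2 signal of replicate 1 minus the mean of replicates 2 and 3 for the members and 5 related AP-1 genes, in each of the 3 populations. Jun, Junb and Fos lie above 0 in both CDP populations, and Jund lies at 0.86 in Zbtb46-pos CDPs and 0.10 in Zbtb46-neg CDPs.

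Few of the other dimer partners of Jun passed the test with all arrays. Of 8 Fos, Atf and Jdp2 subunits of AP-1, limma called 0 between the CDP populations and 0 in pre-CD8 DCs against Zbtb46-pos CDPs. Of all genes, 14.4% and 6.62% were called there. In each comparison 1 subunit had an unadjusted p under 0.05, beside 29.2% and 19% of all genes. The intervals were wide, from -0.88 to 0.75 on the log2 scale for Fos and from -1.15 to 1.08 for Fosb between the CDP populations. Beside 9.23% of all genes, 2 subunits fell over the span in pre-CD8 DCs against Zbtb46-neg CDPs. These were Fosl2, a Fos family subunit, at 0.501 of its level in Zbtb46-neg CDPs (adjusted p = 0.0399), and Atf7, a CRE-binding factor, at 0.755 (adjusted p = 0.0497). The list's median difference was -0.05, -0.02 and 0.01 in the 3 comparisons, beside 0.04, -0.03 and 0.01 for all genes. Atf7 lost its call when any array other than Zbtb46-pos replicate 1 or pre-CD8 DC replicate 2 was left out (adjusted p up to 0.183). Fosl2 lost it when any array other than Zbtb46-pos replicate 1 or 2 was left out (adjusted p up to 0.145).

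Fos, the classical partner of Jun, had signals of 1142, 673 and 647 in Zbtb46-neg CDPs, 1443, 543 and 556 in Zbtb46-pos CDPs, and 827, 774 and 781 in pre-CD8 DCs. As for Jun, replicate 1 was the highest of each CDP population and the pre-CD8 DC arrays lay close together. Its log2 difference in pre-CD8 DCs against Zbtb46-pos CDPs was 0.07 with all arrays (adjusted p = 0.941) and 0.53 without the replicate 1 arrays (adjusted p = 0.00176). Atf3, a stress-induced repressor, differed by -0.02 with all arrays in that comparison (adjusted p = 0.984) and by 0.49 without them (adjusted p = 0.0239). In this smaller fit 3 subunits of the 8 fell between the CDP populations (Fos, Fosb and Fosl2), beside 13.8% of all genes. In pre-CD8 DCs against Zbtb46-pos CDPs 3 rose (Fos, Fosb and Atf3) and 1 fell (Fosl2), with a rise of 1.10 for Fosb (adjusted p = 0.000883). Of all genes 12.5% rose and 7.87% fell there.

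Of 9 measured Maf, Bach and Nfe2 factors, which are basic leucine zipper proteins outside the Fos and Jun families, 2 fell in Zbtb46-pos against Zbtb46-neg CDPs and none rose with all arrays. Of all genes 10.6% fell and 3.85% rose there. Without the replicate 1 arrays 3 fell and 1 rose, beside 13.8% and 8.71% of all genes. Mafk fell by 0.81 on the log2 scale (adjusted p = 0.00251) and Bach2 was up by 0.59 (adjusted p = 0.00285). In pre-CD8 DCs against Zbtb46-pos CDPs 3 then rose and 1 fell, beside 12.5% and 7.87% of all genes. Nfe2, a factor of megakaryocytes and erythroid cells, had signals of 1098, 857 and 983 in Zbtb46-neg CDPs, 683, 418 and 399 in Zbtb46-pos CDPs, and 173, 166 and 153 in pre-CD8 DCs. It fell at each step, by 1.01 (adjusted p = 0.00792) and 1.57 (adjusted p = 0.00166) on the log2 scale, so its course ran against that of Batf3. Nfe2l2, the regulator of the oxidative stress response, fell by 0.60 in Zbtb46-pos against Zbtb46-neg CDPs (adjusted p = 0.00188) and was 0.42 lower in pre-CD8 DCs than in Zbtb46-neg CDPs (adjusted p = 0.00851). Mafg fell by 0.29 in pre-CD8 DCs against Zbtb46-neg CDPs (adjusted p = 0.0268), a call lost without any 1 of the 3 Zbtb46-neg or 3 pre-CD8 DC arrays (adjusted p up to 0.0985).

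Of the IRF factors that bind beside Batf and Jun, Irf8 and Irf4 moved unequally. Irf8, required for cDC1 in mice, had signals of 6618, 5511 and 5578 in Zbtb46-neg CDPs, 10326, 7136 and 6990.0 in Zbtb46-pos CDPs, and 8052, 7584 and 8015 in pre-CD8 DCs. It was high in all 3 populations, and the Zbtb46-neg arrays were the lowest. The log2 difference in Zbtb46-pos against Zbtb46-neg CDPs was 0.45 with all arrays (adjusted p = 0.078) and 0.35 without the replicate 1 arrays, where it passed (adjusted p = 0.00866). In pre-CD8 DCs against Zbtb46-pos CDPs it was -0.02 (adjusted p = 0.948), and 0.16 without the replicate 1 arrays (adjusted p = 0.1). Over the span it was 0.42 (adjusted p = 0.0968), and 0.51 without those arrays, where it passed (adjusted p = 0.000722). Irf4, the partner used in cDC2 and lymphocytes, rose by 1.05 on the log2 scale in pre-CD8 DCs over Zbtb46-neg CDPs (adjusted p = 0.00274). Its signal was 55.5, 71.9 and 59.6 in Zbtb46-neg CDPs, 126, 88.3 and 91.8 in Zbtb46-pos CDPs, and 123, 111.6 and 156 in pre-CD8 DCs. The Zbtb46-neg arrays, replicates 2 and 3 of the Zbtb46-pos CDPs and replicate 2 of the pre-CD8 DCs lay below the table median of 113. Such levels were not shown to be above background, so the rise may be understated. In Zbtb46-pos over Zbtb46-neg CDPs the rise of Irf4 was 0.70 (adjusted p = 0.0257). This call was lost without Zbtb46-neg replicate 1 (0.62, adjusted p = 0.0984) and without Zbtb46-neg replicate 3 (0.67, adjusted p = 0.0898). It was also lost without replicate 1 of both CDP populations (0.46, adjusted p = 0.0814). Blocking on replicate within the 2 CDP populations alone, a fit chosen after seeing the data, ended it too (0.70, adjusted p = 0.0576).

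**Figure D4:**
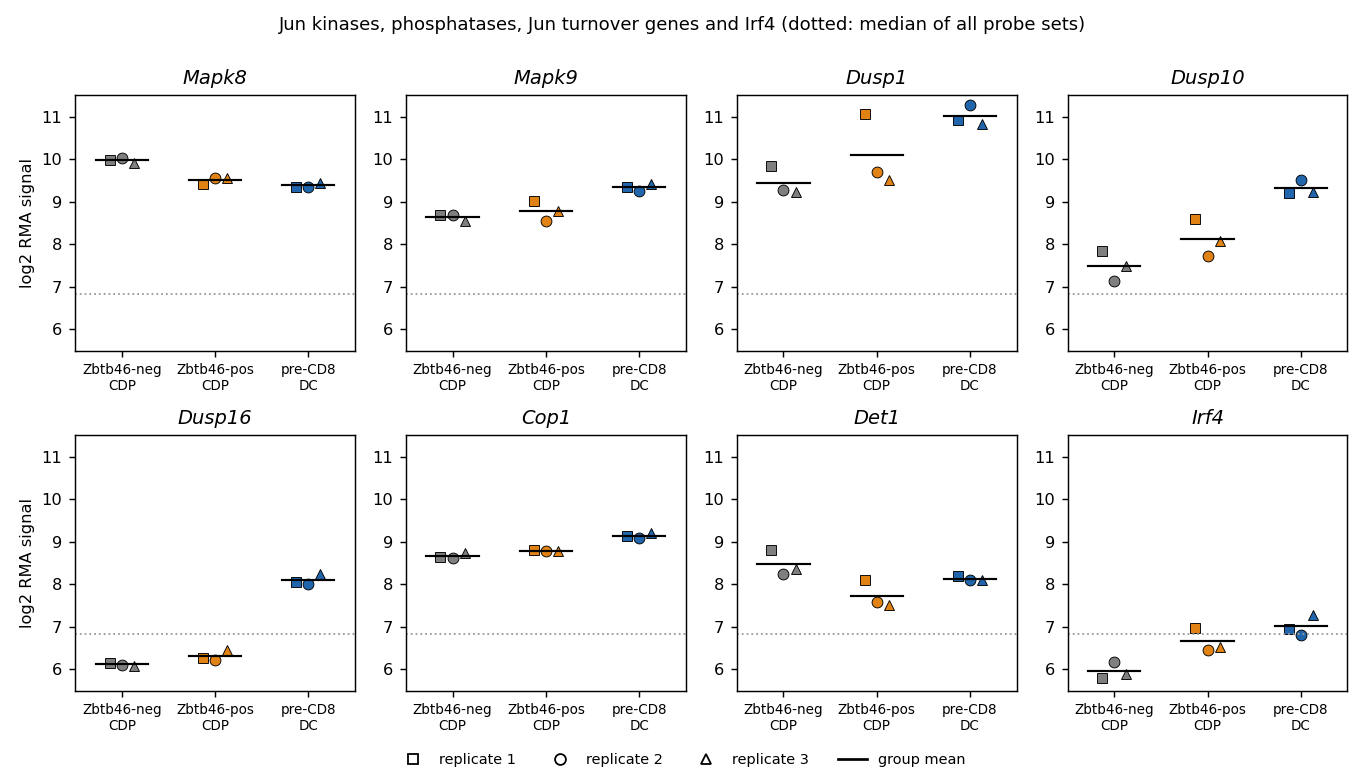
Log2 signal of the kinases, phosphatases and ubiquitin ligase components that act on Jun, and of Irf4, on each of the 9 arrays (symbols by replicate, lines at group means, dotted line at the median of all probe sets). Dusp16 and Dusp10 are highest in pre-CD8 DCs, Mapk8 is highest in Zbtb46-neg CDPs, and Mapk9 is highest in pre-CD8 DCs.

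Some genes of the JNK pathway and of Jun turnover changed at each step. Of 12 measured, 4 rose in pre-CD8 DCs over Zbtb46-pos CDPs and none fell, 2 fell between the CDP populations, and over the span 5 rose and 1 fell. In the same order, 4.76%, 3.85% and 6.43% of all genes rose and 1.86%, 10.6% and 9.23% fell. Without the replicate 1 arrays 7 rose in pre-CD8 DCs over Zbtb46-pos CDPs, 1 rose and 2 fell between the CDP populations, and 5 rose and 1 fell over the span. Of all genes, 12.5%, 8.71% and 9.4% then rose and 7.87%, 13.8% and 10.8% fell. The median difference in pre-CD8 DCs against Zbtb46-pos CDPs was 0.35, beside -0.03 for all genes. Dusp16 and Dusp10 are phosphatases that switch off JNK and p38. Dusp16 had signals of 71.4, 68.3 and 68.0 in Zbtb46-neg CDPs, 76.8, 74.4 and 87.8 in Zbtb46-pos CDPs, and 265, 259 and 302 in pre-CD8 DCs. It was below the table median in both CDP populations and above it in pre-CD8 DCs, where it was 3.46-fold higher than in Zbtb46-pos CDPs (95% interval 3.005 to 3.98, adjusted p = 1.03e-05). Its CDP signals were not shown to be above background, so this fold may be understated.

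Dusp10 had signals of 230.3, 140.4 and 181 in Zbtb46-neg CDPs, 384, 212 and 271 in Zbtb46-pos CDPs, and 587, 731 and 603 in pre-CD8 DCs. It was 2.27-fold higher in pre-CD8 DCs than in Zbtb46-pos CDPs (adjusted p = 0.0179), and leaving out Zbtb46-pos replicate 2 or 3 or any pre-CD8 DC array ended this call (adjusted p up to 0.0726). Over the span it was 3.54-fold higher in pre-CD8 DCs (adjusted p = 0.000611). The kinases that phosphorylate Jun ran in opposite directions over the span. Mapk8 (JNK1) fell by 0.47 on the log2 scale in Zbtb46-pos against Zbtb46-neg CDPs (adjusted p = 0.00309), with signals of 685, 754 and 751 in Zbtb46-pos CDPs against 1013, 1051 and 963 in Zbtb46-neg CDPs. Mapk9 (JNK2) rose by 0.57 in pre-CD8 DCs over Zbtb46-pos CDPs (adjusted p = 0.0201), with signals of 652, 611 and 682 in pre-CD8 DCs against 515, 371 and 436 in Zbtb46-pos CDPs. That call was lost without Zbtb46-pos replicate 3 or without pre-CD8 DC replicate 1 or 3 (adjusted p up to 0.0894), and over the span Mapk9 rose by 0.70 (adjusted p = 0.00286) and Mapk8 fell by 0.60 (adjusted p = 0.000466).

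Cop1 and Det1 belong to a ubiquitin ligase that marks Jun for degradation. Cop1 rose by 0.35 on the log2 scale in pre-CD8 DCs over Zbtb46-pos CDPs (adjusted p = 0.0151), a call lost without pre-CD8 DC replicate 1 or 3 (adjusted p = 0.0605 and 0.0663) and after quantile normalization (adjusted p = 0.138). Det1 fell by 0.73 in Zbtb46-pos against Zbtb46-neg CDPs (adjusted p = 0.0258), a call lost without Zbtb46-neg replicate 1 or 3 or Zbtb46-pos replicate 2 or 3 (adjusted p up to 0.0926). Transcript levels of these enzymes give no measure of their activity.

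Junb and Jun share their rapid induction with a wider set of immediate early genes. Fos, Fosb and Atf3 in this set are also among the AP-1 subunits above, and Dusp1 is also in the JNK pathway list. The counts of these lists therefore overlap. Of the 18 others measured, 3 rose in Zbtb46-pos over Zbtb46-neg CDPs, 2 rose in pre-CD8 DCs over Zbtb46-pos CDPs and 7 rose over the span, and none fell with all arrays. In the same order, 3.85%, 4.76% and 6.43% of all genes rose and 10.6%, 1.86% and 9.23% fell. The summed signal of the 18 was 8983, 6314 and 6126 in Zbtb46-neg CDPs, 14918, 6955 and 7123 in Zbtb46-pos CDPs, and 12281, 11419 and 11499 in pre-CD8 DCs. Replicate 1 was the highest array of each population. Ier5, a stress-response gene, rose at both steps, by 0.75 (adjusted p = 0.0147) and 1.21 (adjusted p = 0.00271) on the log2 scale. Klf4, a zinc finger factor, rose by 1.35 in Zbtb46-pos over Zbtb46-neg CDPs (adjusted p = 0.000259), and Klf6 by 0.92 at the edge of the threshold (adjusted p = 0.0496). The nuclear receptor Nr4a1 rose by 0.68 in pre-CD8 DCs over Zbtb46-pos CDPs (adjusted p = 0.0123).

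Over the span, Dusp1 was 1.56 higher in pre-CD8 DCs than in Zbtb46-neg CDPs on the log2 scale (adjusted p = 0.0188), Ier5 1.96 (adjusted p = 4.13e-05), Klf6 1.33 (adjusted p = 0.00826) and Klf4 1.16 (adjusted p = 0.000265). Calls that did not hold with single arrays left out were those of Ier5 between the CDP populations, without Zbtb46-neg replicate 2 or 3 (adjusted p = 0.0522 and 0.0601), and of Nr4a1 at the second step, without pre-CD8 DC replicate 1 (adjusted p = 0.058). That of Dusp1 was lost without Zbtb46-neg replicate 2 or 3 or any pre-CD8 DC array (adjusted p up to 0.0749). Zfp36, also counted as rising over the span, lost its call without each of the same arrays (adjusted p up to 0.145). Median centring ended that call too (adjusted p = 0.0508). Klf6 between the CDP populations was lost without Zbtb46-neg replicate 2 or 3, Zbtb46-pos replicate 2 or any pre-CD8 DC array (adjusted p up to 0.147). Without replicate 1 of both CDP populations, 4 of the 18 rose and 5 fell in Zbtb46-pos against Zbtb46-neg CDPs, beside 8.71% and 13.8% of all genes. In pre-CD8 DCs against Zbtb46-pos CDPs, 11 then rose and none fell, beside 12.5% and 7.87% of all genes. Their median difference was 0.53, beside -0.03 for all genes. Over the span 10 then rose and 3 fell, beside 9.4% and 10.8% of all genes. The 3 that fell were Egr1 (by 0.46), Ier3 (by 0.30) and Dusp2 (by 0.74). The summed signal of Zbtb46-pos replicate 1 was above that of every pre-CD8 DC array.

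The genes whose 9 signals followed those of a called member most closely were found by the root mean square difference of log2 values, after subtracting each gene's own mean. For Batf3, 408 genes were compared, each with a sufficient change over the populations. The closest was Arid3b, a DNA-binding factor with an AT-rich interaction domain, at 0.11 log2 units, with differences of 1.91 and 1.14 at the 2 steps against 1.81 and 1.17 for Batf3. Next came Cldn1 (a tight junction protein) at 0.16, Rab7b (a small GTPase of the endosome) at 0.17, the kinase Sgk1 at 0.17 and Unc119 at 0.18. For Junb, 2449 genes were compared, and the closest were Plekho2 at 0.18, the kinesin Kif21b at 0.18, Ifitm6 at 0.19, the GTPase Rab32 at 0.20 and Dkkl1 at 0.21. The range of group means was 2.97 for Batf3 and 1.31 for Junb. These genes were picked for their likeness over the same 9 arrays, and their values are a description.

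**Figure D5:**
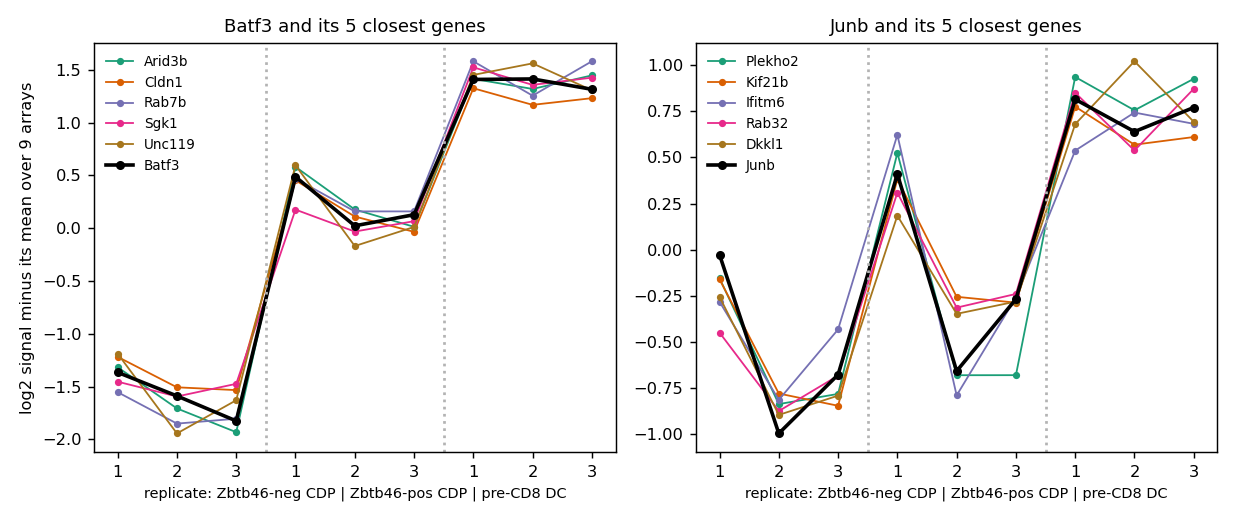
Log2 signal minus each gene's own mean over the 9 arrays for Batf3 and Junb with the 5 genes closest to each, by population and replicate. The genes beside Batf3 climb in 2 steps like it, and those beside Junb are highest in pre-CD8 DCs, with replicate 1 above replicates 2 and 3 in the CDP populations.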

How the data were processed

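The authors deposited 1 signal intensity per probe set, summarized by RMA in Affymetrix Expression Console per the submitters' processing notes, with versions not given in the sources used here. The values were linear (7.454 to 20455.563) and log2 was taken. Of 28853 probe sets, 21789 had 1 gene symbol, 1621 several and 5443 none. For the 999 genes with several probe sets the brightest was kept, giving 19938 genes with no filter on dim ones.

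Group means were fitted to all 9 arrays with limma 3.58.1 (lmFit, eBayes) in R 4.3.3, with Benjamini-Hochberg adjustment over all genes within each comparison. Alternatives covered scale, normalization, a dim filter, probe sets, variance model, array weights, samples, a replicate block and single arrays. Same-numbered arrays were checked for pairing by their deviations from group means. These correlated by 0.51, 0.42 and 0.36 between the CDP groups, and by -0.03 to 0.17 otherwise. Differently numbered CDP arrays correlated by -0.51 to 0.38, the highest being Zbtb46-neg replicate 3 with Zbtb46-pos replicate 2. The numbers alone thus do not establish a pairing. A block is given beside the CDP results where it changes a call. The main fit has no block. The fit was tested on simulated data. Motifs and plots used Python 3.11.15 and matplotlib 3.10.9.

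Members and gene lists were chosen with earlier results of these data known. Named genes are the members, up to 4 called genes per list and comparison with the largest change, Fos, Irf4, Irf8 and Atf3 whatever their values, and the 5 genes closest to each member called by the F test. Xist, Ngp and Dusp1 in the account of replicate 1, and Fosb, Mafk, Bach2, Egr1, Ier3, Dusp2, Kit, Flt3 and Zfp36, were chosen after their values were seen.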

Additional observations from a re-analysis of the deposited data

How the results depend on the processing

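Of the 22 settings tried, every one that gives a value left the 3 Batf3 calls in place, with log2 differences of 1.67 to 1.96 in Zbtb46-pos against Zbtb46-neg CDPs, 1.04 to 1.30 in pre-CD8 DCs against Zbtb46-pos CDPs and 2.86 to 3.18 in pre-CD8 DCs against Zbtb46-neg CDPs. Without replicate 1 of both CDP groups (the arrays low in Xist), 4495, 4066, 6203 and 3966 genes were called for the first step, the second step, the F test and the difference of steps, and 3, 5, 5 and 3 members. At the first step Batf2 was then 0.27, Jun -0.47 and Jund -0.13 (sign turned), and at the second Batf 0.52, Batf2 -0.26, Jun 0.43 and Junb 1.21. With array weights 6430, 3062, 6955, 8701 and 3568 genes were called for the first step, the second step, the span, the F test and the difference of steps, and 3, 3, 4 and 2 members for the first step, the second step, the F test and the difference of steps, with 3 for the span. Batf was then -0.38, Batf2 0.29 and Jund -0.14 (sign turned) at the first step, and Batf 0.47 and Junb 1.16 at the second. Over the span Jund was 0.28 and called (adjusted p = 0.0471). With the replicate block over all arrays, Junb at the second step was 0.92 (adjusted p = 0.0178), which made 2 members called. With the replicate block on the CDP groups alone, 2 members were called and Junb was 0.40. No other call of a member changed with either block. Quantile normalization turned Jun to -0.13 at the second step and to -0.0116 for the difference of steps, where 1 member was then called. Fits of the 2 groups alone called 1858 and 850 genes at the first and second step. At an adjusted p under 0.01, 1405, 543, 1877, 2094 and 418 genes passed, with 1 member over the span and 1 by the F test. With single arrays left out, called genes ranged from 1793 to 5268 at the first step, 662 to 2672 at the second, 2624 to 6273 by the F test and 671 to 3584 for the difference of steps. Members called ranged from 1 to 3, 1 to 2, 1 to 4 and 0 to 3 in these, and from 1 to 2 over the span. First-step differences ranged from 0.15 to 0.31 for Batf2, -0.68 to -0.0624 for Jun and -0.16 to 0.32 for Jund. At the second step they ranged from -0.18 to 0.43 for Jun, 0.67 to 1.21 for Junb and -0.0734 to 0.41 for Jund, and over the span from -0.0387 to 0.21 for Batf and 1.10 to 1.58 for Junb. For the difference of steps they ranged from -0.12 to 1.11 for Jun and -0.40 to 0.58 for Jund. The cause of these changes was not tested. Signal near the table median limits what can be read from Batf2, Jund and Irf4.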
